A study of Danio rerio with 24 samples.

Results

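The livers compared here were those of F1 males of the control lineage, set against those of the F0 males of the same lineage, in a zebrafish study of dietary arachidonic acid (ARA), an omega-6 polyunsaturated fatty acid. The 12 libraries of this comparison were chosen by their labels, 6 from F1 control fish and 6 from F0 control fish, of 24 libraries in the whole series. All fish were wildtype AB zebrafish (Danio rerio), and neither group carried an engineered allele. F1 control fish were the progeny of the F0 control fish, were fed the control diet from 27 days post fertilization (DPF), and gave livers at 140 to 142 DPF. F0 control fish were fed the same control diet from 27 DPF, were mated at 97 DPF, and gave livers at 154 to 156 DPF. A library was a pool of 6 male livers from 1 tank, and the tank was the replicate, numbered 7 to 12 in each generation. Both generations were kept at 14 h light and 10 h dark, food was withheld before dissection and livers were taken in random order. The clock time of each dissection is not given in the sources used here. Generation, age and days of sampling differed together. Mating is described for F0 fish alone, and the study lists a lower mean body weight for F1 than for F0 control fish. The study also names diets fed to generations before F0 as a possible further difference. These differences cannot be told apart. The other 12 libraries came from the high ARA lineage, whose F0 fish were fed a high ARA diet from 27 DPF. Its livers were taken at the same ages in each generation. The livers were bulk tissue of males alone, so fewer cells of a type and less RNA per cell cannot be told apart either, and females and single fish were not analysed here.

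The liver takes up, makes and exports lipids, amino acids, bile acids and plasma proteins, and most of its RNA comes from hepatocytes. Many hepatic genes follow the circadian clock, a loop in which the activators Clock and Bmal1 switch on period (per) and cryptochrome (cry) genes, whose proteins then hold the activators down. The same activators drive the PAR bZIP factors (tef, dbp and hlf), which in turn set the daily rhythm of output genes in lipid, amino acid and drug metabolism. In zebrafish the clocks of liver and other organs respond to light directly. Feeding acts on many of the same genes through insulin and FoxO transcription factors.

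RNA-sequencing counts per gene were available under 2 annotations of the genome build GRCz10, from Ensembl and from RefSeq. Library totals over Ensembl genes were 5144880 to 8493413 reads in F1 livers (median 5668222), against 5608588 to 15659321 reads in F0 livers (median 8721951). Levels below are CPM, counts scaled to the depth of each library, under the Ensembl annotation and with TMM (trimmed mean of M-values) factors, and they compare libraries for 1 gene, not genes with each other. Summed over 12 hepatocyte markers, levels were 179627 to 201011 CPM in F1 livers and 150928 to 220251 CPM in F0 livers, and no marker was at 0 in any library, so the hepatocyte markers were present in all tissue labelled as liver. Acinar pancreas markers summed to 1444 to 9816 CPM in F1 livers and 1064 to 4077 CPM in F0 livers, islet markers to 8.31 to 43.1 CPM in F1 livers and 8.36 to 510.1 CPM in F0 livers, and enterocyte markers to 2509 to 5065 CPM in F1 livers and 3240 to 8965 CPM in F0 livers. The groups overlapped in each sum, but the members lay mostly on 1 side. All 23 enterocyte markers tested (median log2 fold change -1.14) and all 7 islet markers (median -2.34) were below 0, against 1 of 21 acinar markers (median 1.08). No member of the acinar, islet or enterocyte list passed the test described below (0 each by edgeR), whereas 9, 5 and 3 members had an unadjusted p under 0.05, and 1, 3 and 2 passed with DESeq2. The insulin gene ins (log2 fold change -2.74, edgeR adjusted p = 0.164) and the glucagon gene gcga (-2.72, 0.147) of the islet list, try (1.00, 0.311) and prss59.1 (1.13, 0.276) of the acinar list, and fabp1b.1 (-1.08, 0.748) and fabp2 (-0.60, 0.835) of the enterocyte list did not pass.

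Between the generations 204 genes were differentially expressed genes (DEGs), 67 of them higher and 137 lower in F1 livers. A gene counted as a DEG when the Ensembl and the RefSeq counts each gave an adjusted p-value under 0.05 (edgeR's quasi-likelihood F test, Benjamini-Hochberg adjustment over all genes) and 1 direction, which held for 1.86% of the 10966 genes tested in both (0.611% higher, 1.25% lower). The median log2 fold change of the higher DEGs was 0.69 and that of the lower ones -1.0, against -0.00 over all genes tested. Of the lower DEGs 68 had a log2 fold change under -1, and of the higher ones 16 had one over 1. The 6 F1 and the 6 F0 libraries did not overlap in 131 of the 204 DEGs (91 lower, 40 higher), while over all genes tested they did not overlap in 252, or 2.30% (1.43% with F1 lower). At an unadjusted p under 0.05 there were 2123 Ensembl genes, 926 higher and 1197 lower in F1 livers. The median level was 11.9 CPM for the lower DEGs and 30.0 CPM for the higher ones (9.33 CPM over all genes tested). CPM is not scaled to gene length, and the median exon length was 3020 bases for the lower and 2499 bases for the higher DEGs.

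The number of DEGs depended on single libraries. It was 83 without F1 replicate 10, 91 without F1 replicate 8, 96 without F0 replicate 9, 110 without F1 replicate 11 and 133 without F1 replicate 9, and between 147 and 222 when each of the others was left out. F0 replicate 10 had the highest F0 level in 50 of the 137 lower DEGs, and F1 replicate 11 had the lowest F1 level in 41 of them. F1 replicate 10 had the highest F1 level in 28 of the 67 higher DEGs. Among 70 DEGs chosen by the rule for named genes, 26 were called in each of these fits that tested them, and 44 lost the call without at least 1 library. Of the 26, alox5b.3 was not tested in some of these fits.

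The 12 named DEGs with the smallest p-values comprised 3 that rose and 9 that fell in F1 livers, and the groups did not overlap in any of them. They were chosen by p-value from the same libraries, so the lack of overlap is no further support. Over all DEGs the groups did not overlap in 131 of 204. Pglyrp2, which encodes a peptidoglycan recognition protein that the liver secretes (GRCz10 chromosome 6, 8254783 to 8263369), was measured at 83.5 to 118 CPM in F1 livers (median 102), against 46.1 to 56.6 CPM in F0 livers (median 49.3), and was 1.98-fold higher (log2 fold change 0.99 ± 0.11, edgeR adjusted p = 0.00147, errors being SE here and below). Igfbp7, a secreted binding protein of insulin-like growth factors (GRCz10 chromosome 14, 51653568 to 51860801), had 7.6 to 12.9 CPM in F1 livers (median 10.3), against 3.73 to 5.04 CPM in F0 livers (median 4.54) (log2 fold change 1.13 ± 0.15, edgeR adjusted p = 0.00308). Camk1ga, a kinase switched on by calcium and calmodulin (GRCz10 chromosome 22, 1032469 to 1052509), had 4.53 to 7.08 CPM in F1 livers (median 5.93), against 1.24 to 2.71 CPM in F0 livers (median 2.2) (log2 fold change 1.46 ± 0.20, edgeR adjusted p = 0.00308). All 3 genes were higher in each F1 library than in any F0 library.

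Tns2b encodes tensin 2, an adaptor at the sites where cells hold on to the matrix (GRCz10 chromosome 6, 39016341 to 39053783). It was 17.4-fold lower, at 0 to 0.792 CPM in F1 livers (median 0.167), against 2.85 to 8.19 CPM in F0 livers (median 5.59) (log2 fold change -4.12 ± 0.46, edgeR adjusted p = 0.00147). These levels rested on 0 to 4 reads per F1 library and 16 to 106 reads per F0 library. Txnipa, which binds thioredoxin and restrains glucose uptake (GRCz10 chromosome 19, 24904180 to 24908103), was 2.14-fold lower, with 123 to 177 CPM in F1 livers (median 136), against 231 to 430.4 CPM in F0 livers (median 288) (log2 fold change -1.10 ± 0.14, edgeR adjusted p = 0.00308). Etnk1, the ethanolamine kinase that starts the synthesis of phosphatidylethanolamine (GRCz10 chromosome 4, 16896878 to 16917947), had 40.3 to 50.9 CPM in F1 livers (median 45), against 61.3 to 89.8 CPM in F0 livers (median 80) (log2 fold change -0.79 ± 0.10, edgeR adjusted p = 0.00308). Tefa, a PAR bZIP factor of the clock output (GRCz10 chromosome 12, 19022959 to 19031303), was 2.83-fold lower, with 19.4 to 35.2 CPM in F1 livers (median 26.6), against 53.2 to 104 CPM in F0 livers (median 74) (log2 fold change -1.50 ± 0.20, edgeR adjusted p = 0.00308). In each of these 4 genes the highest F1 library lay below the lowest F0 library.

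The other 5 genes of this group were lower in F1 livers as well. Ppm1ka, a mitochondrial phosphatase that switches on the breakdown of branched-chain amino acids, was 2.33-fold lower at 7.24 ± 2.03 CPM in F1 livers, against 17 ± 2 CPM in F0 livers (log2 fold change -1.22 ± 0.17, edgeR adjusted p = 0.00308, mean ± SD, n = 6 each). Chchd7, a small protein of the mitochondrial intermembrane space, was at 5.04 ± 1.09 CPM in F1 livers, against 11.1 ± 1.8 CPM in F0 livers (log2 fold change -1.15 ± 0.16, edgeR adjusted p = 0.00308). Nedd4a, a ubiquitin ligase, was 2.44-fold lower at 17.8 ± 6.15 CPM in F1 livers, against 43.6 ± 2.28 CPM in F0 livers (log2 fold change -1.29 ± 0.18, edgeR adjusted p = 0.00424), and its F0 libraries lay closer together than its F1 libraries, which held values of 12.2 CPM in replicate 9 and 25.4 CPM in replicate 12. Exd3, whose protein has an exonuclease domain, was at 5.91 ± 0.517 CPM in F1 livers, against 13.8 ± 4.12 CPM in F0 livers (log2 fold change -1.23 ± 0.18, edgeR adjusted p = 0.00488). Cry2, a cryptochrome, is described with the clock. Each of these genes, like the others with the smallest p-values, was a DEG whichever library was left out.

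**Figure D1:**
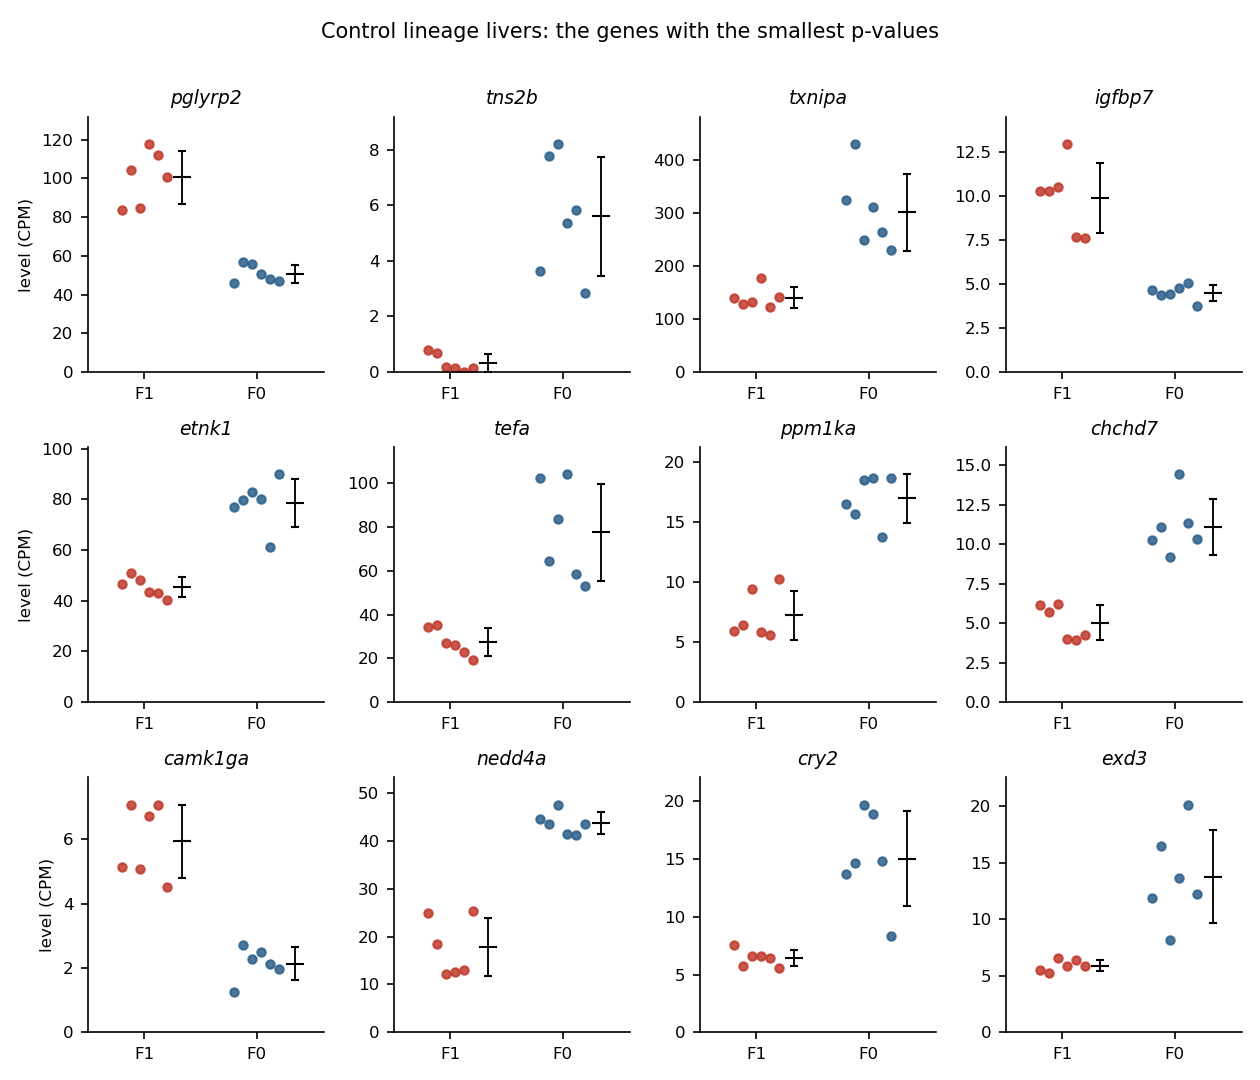
Level of the 12 named genes with the smallest p-values in each library (CPM, linear axes starting at 0), with the 6 F1 libraries left and the 6 F0 libraries right in replicate order, and mean ± SD beside the points. The 2 clouds do not overlap in any panel, with F1 above F0 for pglyrp2, igfbp7 and camk1ga and below it for the other 9.

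Genes of the circadian clock made up 13 of the 204 DEGs, of 39 clock genes tested (33.3%, against 1.86% over all genes), and 12 of the 13 were lower in F1 livers. The median log2 fold change of the 39 genes was -0.67 (-0.00 over all genes tested), 29 were below 0 and 25 had an unadjusted p under 0.05 (2123 of 11729 over all Ensembl genes). By role, 8 of 18 repressors were DEGs (7 lower, 1 higher), as were 3 of 9 PAR bZIP factors and their antagonists (all lower) and 1 of 5 activators (lower). Of 7 genes listed as light-responsive photolyases and kinases, 1 was a DEG (lower), the protease gene usp2b, so no photolyase or kinase of that list was called. The F1 and F0 libraries did not overlap in 10 of the 13 (131 of the 204 over all DEGs).

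Among the repressors, per1a encodes a period protein (GRCz10 chromosome 10, 22841347 to 22862023). Its level was 1.75 to 7.25 CPM in F1 livers (median 5.47), against 13.5 to 25.7 CPM in F0 livers (median 14.6), so that each F1 library lay below every F0 library, and it was 3.32-fold lower (log2 fold change -1.73 ± 0.26, edgeR adjusted p = 0.006). Cry2 (GRCz10 chromosome 25, 13750483 to 13774721) was 2.35-fold lower at 5.55 to 7.52 CPM in F1 livers (median 6.51), against 8.36 to 19.7 CPM in F0 livers (median 14.7) (log2 fold change -1.23 ± 0.18, edgeR adjusted p = 0.00464), and its F1 libraries spread over a narrower range than its F0 libraries. The remaining repressors among the DEGs were per1b, per2, cry1aa, cry1bb, bhlhe41 and ciartb, with log2 fold changes from -2.35 to 0.70. Of these, 2 are given in full because their values stood at the ends of that range, a choice made after seeing the values. Bhlhe41, a repressor of Clock and Bmal1 targets, had 1.46 to 5.73 CPM in F1 livers (median 3.94), against 6.4 to 44.9 CPM in F0 livers (median 15.7) (log2 fold change -2.35 ± 0.51, edgeR adjusted p = 0.0366), with its highest level in F0 replicate 10. Cry1bb, another cryptochrome, was the only clock DEG that rose, at 18.8 to 32.9 CPM in F1 livers (median 20.1), against 10.3 to 17.8 CPM in F0 livers (median 13.7) (log2 fold change 0.70 ± 0.16, edgeR adjusted p = 0.0371), and F1 replicate 12 was its highest library.

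Of the output factors 3 fell as well. Tefa is given above. Its paralogue tefb (GRCz10 chromosome 3, 5142981 to 5157744) had 0.877 to 2.74 CPM in F1 livers (median 1.5), against 3.32 to 7.05 CPM in F0 livers (median 4.11) and was 2.82-fold lower (log2 fold change -1.49 ± 0.27, edgeR adjusted p = 0.0155). Dbpa, the D-site binding protein (GRCz10 chromosome 19, 10258190 to 10277445), had 2.25 to 6.47 CPM in F1 livers (median 4.73), against 7.47 to 17.4 CPM in F0 livers (median 9.68) and was 2.39-fold lower (log2 fold change -1.26 ± 0.24, edgeR adjusted p = 0.0164). In both the groups stood apart without overlap. Usp2b, a ubiquitin-specific protease whose mammalian counterpart is under clock control (GRCz10 chromosome 5, 62395349 to 62415841), was 2.68-fold lower at 1.69 to 3.73 CPM in F1 livers (median 2.23), against 4.45 to 9.66 CPM in F0 livers (median 6.49) (log2 fold change -1.42 ± 0.22, edgeR adjusted p = 0.00762). The activator among the DEGs was rorab, a nuclear receptor that in mammals switches on Bmal1, with a log2 fold change of -0.94 ± 0.20, whereas bmal1a, named after its value was seen, had 0.73 ± 0.26 and did not pass (edgeR adjusted p = 0.147). Clock genes that did not pass although their F1 and F0 libraries did not overlap were nr1d1 (-1.48 ± 0.36), per3 (-1.02 ± 0.25) and dbpb (-1.18 ± 0.30), likewise picked by their values.

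How far the clock calls held differed between genes and libraries. Tefa, cry2, per1a, usp2b and tefb were DEGs whichever library was left out, dbpa lost the call without F1 replicate 8 and per1b without F1 replicate 8 or 10. The other 6 lost it without 4 to 9 of the 12 libraries in turn. The count of 13 was 5 without F1 replicate 8, 8 without F1 replicate 9, 10 or 11 or F0 replicate 7 or 9, and 10 to 13 without each of the others. F0 replicate 10 held the highest F0 level in 8 of the 12 lower genes, and F0 replicate 12 the lowest in 7. Time of day at dissection could not be set beside these values, and its part in them was not tested.

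**Figure D2:**
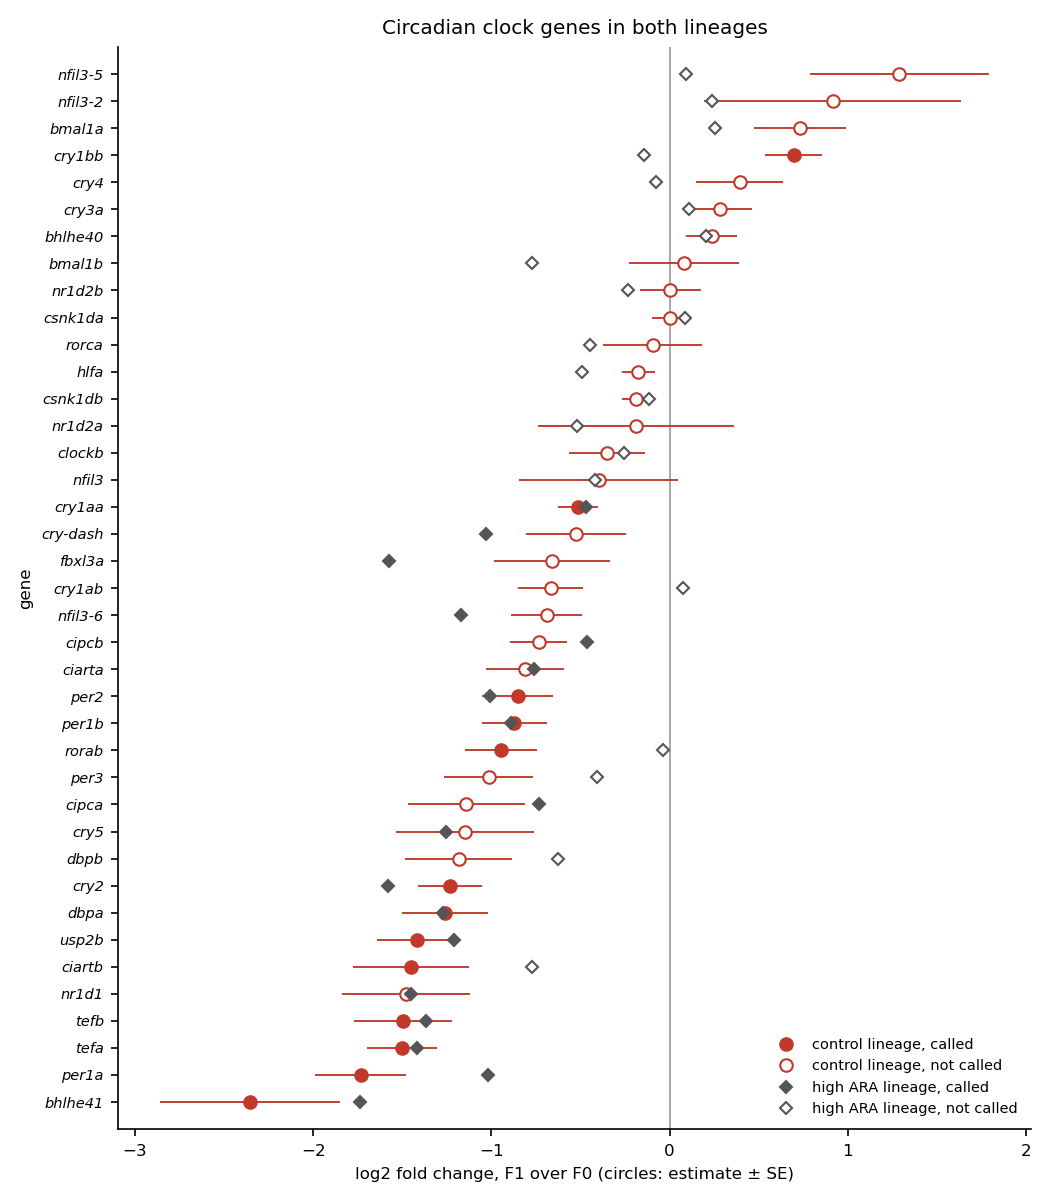
Log2 fold change of F1 over F0 livers for the 39 clock genes tested, sorted by the control lineage (circles, ± SE; filled where the gene was a DEG) with the same gene in the high ARA lineage (diamonds; filled where it was a DEG there). The DEGs of the control lineage lie left of 0 apart from cry1bb, and bhlhe41 is farthest left.

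In the list of insulin signalling, FoxO factors and fasting genes, 6 of 37 genes tested were DEGs (16.2%, against 1.86% over all genes). All 6 were lower in F1 livers. The list had a median log2 fold change of -0.38 (-0.00 over all genes tested), with 27 genes below 0. By role, 5 of 23 FoxO factors and known targets were DEGs (median -0.88), as was 1 of 7 receptors and adaptors (median 0.19). None of 7 fasting hormones and metabolic switches was (0 by edgeR, 0 with DESeq2, 1 with an unadjusted p under 0.05). In the high ARA lineage 5 of the 37 were DEGs, all lower, while 16% of all genes were DEGs there. Lepr, the leptin receptor (GRCz10 chromosome 6, 31197144 to 31246782), was 2.15-fold lower at 4.57 to 10.4 CPM in F1 livers (median 6.32), against 11.7 to 18.7 CPM in F0 livers (median 13.6) (log2 fold change -1.11 ± 0.19, edgeR adjusted p = 0.00986). The other 5, all among 23 FoxO factors and known FoxO targets, were txnipa, described above, and trib3, trib1, gadd45ba and cdkn1a. Trib3 and trib1 encode pseudokinases, and trib3 binds the kinase Akt in mammals. Trib3 had 7.74 to 14.8 CPM in F1 livers (median 10.5), against 12.8 to 44.7 CPM in F0 livers (median 25.4) (log2 fold change -1.34 ± 0.28, edgeR adjusted p = 0.0292), and trib1 had 2.07 to 6.1 CPM in F1 livers (median 3.37), against 6.05 to 15.2 CPM in F0 livers (median 9.94) (log2 fold change -1.35 ± 0.30, edgeR adjusted p = 0.0326), and both overlapped between the generations. Gadd45ba, induced by growth arrest and DNA damage, was 2.13-fold lower at 28.6 to 51.7 CPM in F1 livers (median 38.5), against 56.5 to 141 CPM in F0 livers (median 75.2) (log2 fold change -1.09 ± 0.22, edgeR adjusted p = 0.0235), and cdkn1a, the cell cycle inhibitor p21, was 2.6-fold lower at 0.674 to 1.31 CPM in F1 livers (median 1.01), against 1.6 to 4.66 CPM in F0 livers (median 2) (log2 fold change -1.38 ± 0.32, edgeR adjusted p = 0.0371). Lepr and txnipa were DEGs whichever library was left out. Gadd45ba lost the call without F1 replicate 10 or 11 or F0 replicate 9, and trib3, trib1 and cdkn1a without 7 to 9 of the 12 in turn. The list had 2 DEGs without F1 replicate 11 or F0 replicate 9, 3 without F1 replicate 7, 9 or 10, and 4 to 6 without each of the others.

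In fatty acid metabolism, 1 gene of uptake and 1 regulator rose in F1 livers, while 1 enzyme of peroxisomal oxidation described here and 3 genes of lipid synthesis fell. Slc27a1b, a fatty acid transport protein (GRCz10 chromosome 1, 57808977 to 57826447), was 1.75-fold higher at 159 to 271 CPM in F1 livers (median 204), against 93.4 to 133 CPM in F0 livers (median 117) (log2 fold change 0.81 ± 0.13, edgeR adjusted p = 0.00884). Pparda, the fatty acid sensing nuclear receptor PPAR delta (GRCz10 chromosome 22, 980940 to 1005533), was 1.92-fold higher at 52.4 to 141 CPM in F1 livers (median 109.9), against 38.3 to 70.4 CPM in F0 livers (median 56.1) (log2 fold change 0.94 ± 0.21, edgeR adjusted p = 0.0366), with F1 replicate 12 inside the F0 range and 10.1% of its exon bases shared with another gene on the same strand. Ehhadh, a bifunctional enzyme of peroxisomes (GRCz10 chromosome 9, 12457023 to 12472523), had 173 to 241 CPM in F1 livers (median 203), against 213 to 384 CPM in F0 livers (median 316) (log2 fold change -0.56 ± 0.13, edgeR adjusted p = 0.0354). In all, 4 of 44 genes of fatty acid oxidation tested were DEGs (9.09%, against 1.86% over all genes). Of these 2 were higher and 2 lower, and the median log2 fold change of the 44 was -0.02. None of 21 mitochondrial ones was a DEG (0 by edgeR, 2 with DESeq2, 2 with an unadjusted p under 0.05). Slc27a1b was a DEG whichever library was left out, and pparda and ehhadh lost the call without 9 of the 12 in turn. The list had 1 to 6 DEGs with 1 library left out (1 without F1 replicate 8, 10 or 11, 2 without F1 replicate 7 or 9 or F0 replicate 9, 10 or 12, and 6 without F1 replicate 12).

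Of 39 lipid synthesis genes tested, 3 were DEGs (7.69%, against 1.86% over all genes). All 3 were lower in F1 livers (median log2 fold change of the list -0.08). Srebf1, which encodes the lipogenic transcription factor SREBP-1 (GRCz10 chromosome 3, 61824619 to 61850706), was 2.39-fold lower at 1.25 to 3.11 CPM in F1 livers (median 1.77), against 3.73 to 7.05 CPM in F0 livers (median 4.49) without overlap (log2 fold change -1.26 ± 0.23, edgeR adjusted p = 0.0136). Dgat2, which catalyses the last step of triglyceride synthesis (GRCz10 chromosome 10, 32557416 to 32580360), was 2-fold lower at 31.1 to 44.3 CPM in F1 livers (median 35), against 38.2 to 104 CPM in F0 livers (median 73.1) (log2 fold change -1.0 ± 0.20, edgeR adjusted p = 0.0195), and the lowest F0 library, replicate 7, lay within the F1 range. Etnk1 is given above. Fatty acid synthase (fasn), a target of SREBP-1 named after its value was seen, was at 28.8 to 59.9 CPM in F1 livers (median 42.2), against 47 to 381 CPM in F0 livers (median 103) and did not pass (log2 fold change -1.74 ± 0.46, edgeR adjusted p = 0.0765). Srebf1 and etnk1 were DEGs whichever library was left out, dgat2 lost the call without F1 replicate 8 or 11, and the list had 6 DEGs without F0 replicate 11.

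Sterol and bile acid genes gave few calls. None of 21 cholesterol synthesis genes was a DEG (0 by edgeR, 1 with DESeq2, 5 with an unadjusted p under 0.05, smallest edgeR adjusted p = 0.117), and 20 of the 21 had a log2 fold change below 0, with a median of -0.40. Abca1a, the pump that loads cholesterol onto apolipoproteins (GRCz10 chromosome 1, 51925841 to 51993670), fell, with 72.5 to 100 CPM in F1 livers (median 79.9), against 106 to 125 CPM in F0 livers (median 118) (log2 fold change -0.49 ± 0.09, edgeR adjusted p = 0.0174), and was the 1 DEG of 33 sterol genes (3.03%, against 1.86% over all genes). The call was lost without F1 replicate 8, and 2 sterol genes were DEGs without F1 replicate 11. Of 18 bile acid genes 2 were DEGs (11.1%, against 1.86% over all genes), both higher (median log2 fold change 0.18). Hsd3b7, an enzyme of the steps that turn cholesterol into bile acids (GRCz10 chromosome 3, 32612232 to 32646536), was 1.43-fold higher at 237 to 330.2 CPM in F1 livers (median 315), against 181 to 229 CPM in F0 livers (median 219) (log2 fold change 0.52 ± 0.10, edgeR adjusted p = 0.0174) and lost the call without F0 replicate 9. Fdx1, ferredoxin, which passes electrons to mitochondrial P450 enzymes of sterol and steroid metabolism (GRCz10 chromosome 9, 29709950 to 29724707), was 1.89-fold higher at 81.4 to 134 CPM in F1 livers (median 118), against 48 to 85.3 CPM in F0 livers (median 52.6) (log2 fold change 0.92 ± 0.16, edgeR adjusted p = 0.0131). F0 replicate 7 lay within the F1 range, the call held whichever library was left out, and 19.3% of its exon bases were shared with arhgap20 on the opposite strand.

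Apolipoproteins, the protein shell of the lipid particles that the liver secretes, gave 3 DEGs of 21 tested (14.3%, against 1.86% over all genes). All 3 were higher in F1 livers (median log2 fold change of the list 0.06). Apoa4b.1 (GRCz10 chromosome 16, 23999038 to 24000948) was 1.61-fold higher at 2805 to 3294 CPM in F1 livers (median 3127), against 1562 to 2317 CPM in F0 livers (median 1888) (log2 fold change 0.69 ± 0.11, edgeR adjusted p = 0.00883). Its neighbour apoa4b.3 (GRCz10 chromosome 16, 24006578 to 24007836) was 2.22-fold higher at 308 to 621 CPM in F1 livers (median 437), against 117 to 335 CPM in F0 livers (median 185) (log2 fold change 1.15 ± 0.23, edgeR adjusted p = 0.0235). Both encode apolipoprotein A-IV, and 16% of the exon bases of apoa4b.1 overlapped those of apoa4b.2, so reads over these bases could have been lost. Apof, which in mammals inhibits lipid transfer between particles (GRCz10 chromosome 6, 39164758 to 39170196), was 1.99-fold higher at 98.2 to 217 CPM in F1 livers (median 166), against 60.4 to 106 CPM in F0 livers (median 84.9) (log2 fold change 1.0 ± 0.18, edgeR adjusted p = 0.0144), and F1 replicate 12 was its low library. Apoa4b.1 was a DEG whichever library was left out, apof lost the call without F1 replicate 8, and apoa4b.3 without F1 replicate 8 or F0 replicate 11. Enterocytes also make apolipoprotein A-IV, and their markers summed to 2509 to 5065 CPM in F1 livers and 3240 to 8965 CPM in F0 livers, with 11 of 28 markers at 0 in at least 1 F1 library and 9 of 28 in at least 1 F0 library, while rbp2a alone made 76.7% of the sum. Their part in the apolipoprotein result was not tested.

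**Figure D3:**
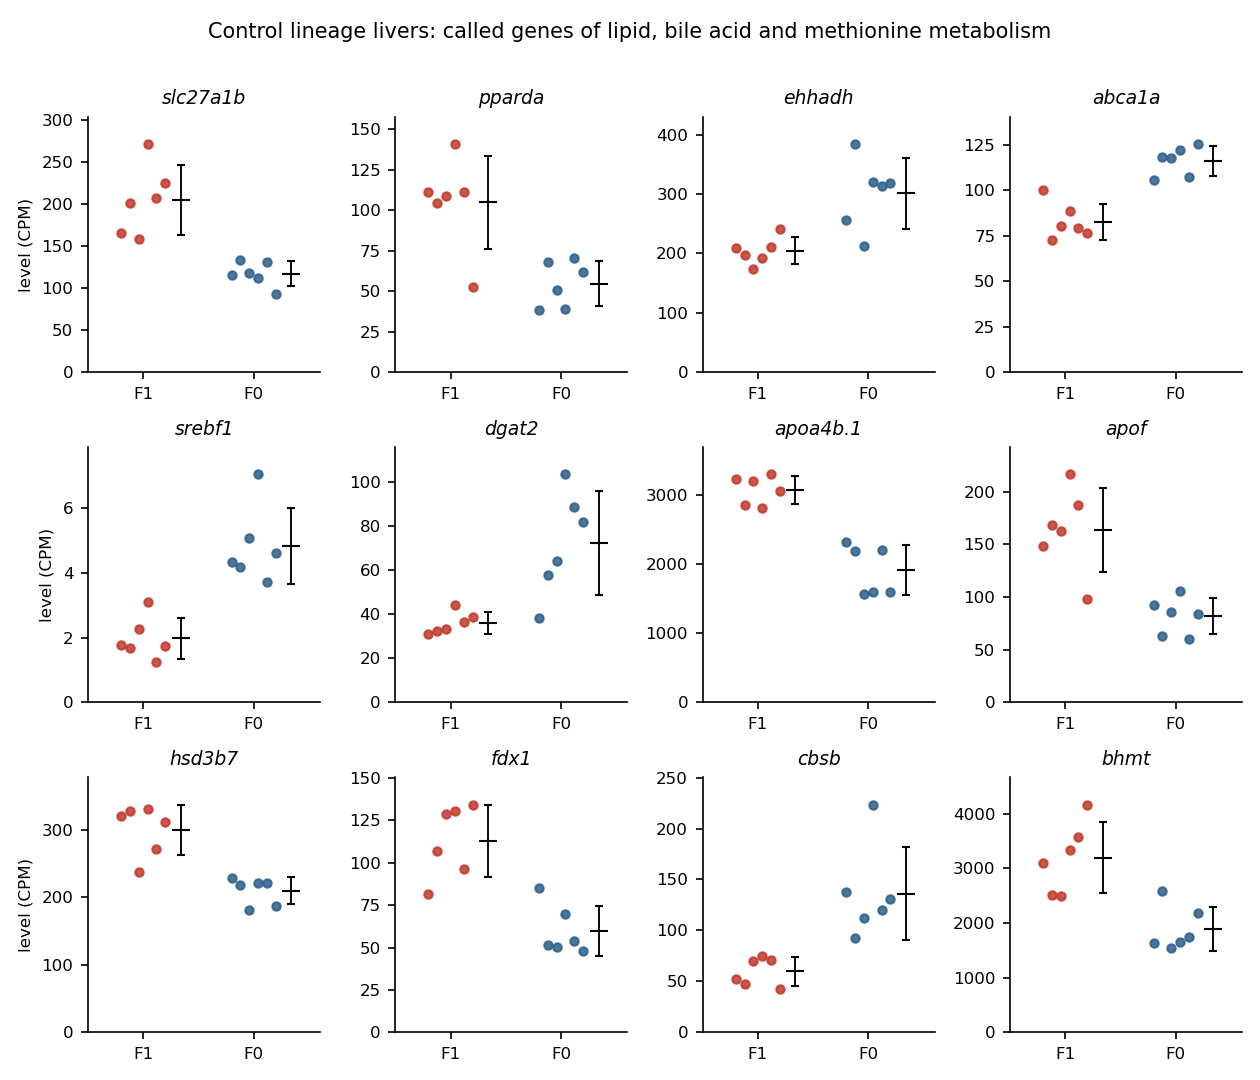
Level of 12 DEGs of lipid, bile acid and methionine metabolism in each library (CPM, linear axes starting at 0), F1 left and F0 right in replicate order, with mean ± SD beside the points. F1 lies higher for slc27a1b, pparda, apoa4b.1, apof, hsd3b7, fdx1 and bhmt and lower for ehhadh, abca1a, srebf1, dgat2 and cbsb.

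In glucose metabolism 1 of 38 genes tested was a DEG, a share of 2.63% that is near the 1.86% over all genes. Pfklb, the liver phosphofructokinase that commits glucose to glycolysis (GRCz10 chromosome 11, 44869603 to 44895836), was 1.69-fold lower at 43.7 to 90.7 CPM in F1 livers (median 59.6), against 98.3 to 122 CPM in F0 livers (median 106) (log2 fold change -0.76 ± 0.16, edgeR adjusted p = 0.0278). The call was lost without F1 replicate 8, 9, 10 or 11 or F0 replicate 7 or 9, and the list had 0 DEGs without F1 replicate 8, 10 or 11 or F0 replicate 7 or 9, 2 without F1 replicate 7 or 12 or F0 replicate 11, and 4 without F0 replicate 8.

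In amino acid metabolism, 5 of 70 genes tested were DEGs (7.14%, against 1.86% over all genes), 2 higher and 3 lower. The median log2 fold change of the 70 was -0.05. Among 13 genes of the methionine cycle and transsulfuration 1 was a DEG, cbsb. Among 19 genes of serine, glycine and one-carbon metabolism 2 were, chdh and bhmt. Bhmt, which turns homocysteine back into methionine with betaine (GRCz10 chromosome 21, 94310 to 99421), was 1.69-fold higher at 2487 to 4166 CPM in F1 livers (median 3218), against 1546 to 2585 CPM in F0 livers (median 1701) (log2 fold change 0.76 ± 0.15, edgeR adjusted p = 0.02), and 11.8% of its exon bases were shared with dmgdh on the opposite strand. Cbsb, cystathionine beta-synthase, which leads homocysteine into cysteine synthesis (GRCz10 chromosome 9, 9205232 to 9250915), was 2.28-fold lower at 42.5 to 74.6 CPM in F1 livers (median 61.4), against 92.4 to 223 CPM in F0 livers (median 125) without overlap (log2 fold change -1.19 ± 0.20, edgeR adjusted p = 0.0127), and F0 replicate 10 stood above its other F0 libraries. Chdh, choline dehydrogenase, the first enzyme on the way to betaine (GRCz10 chromosome 8, 53493401 to 53509022), was 2.41-fold lower at 1.85 to 5.84 CPM in F1 livers (median 2.99), against 5.28 to 14.8 CPM in F0 livers (median 7.82) (log2 fold change -1.27 ± 0.29, edgeR adjusted p = 0.0354). So bhmt, which uses betaine, rose, and cbsb and chdh fell. Gpt2l, an alanine aminotransferase, rose to 727 ± 142 CPM in F1 livers, against 505 ± 48.5 CPM in F0 livers (log2 fold change 0.53 ± 0.12, edgeR adjusted p = 0.0357). Acy1, an aminoacylase, fell to 29.5 ± 2.26 CPM in F1 livers, against 43.3 ± 9.16 CPM in F0 livers (log2 fold change -0.55 ± 0.13, edgeR adjusted p = 0.041). Cbsb was a DEG whichever library was left out, bhmt lost the call without F0 replicate 9, and chdh, gpt2l and acy1 without 8 to 11 of the 12 in turn. The list had 1 DEG without F0 replicate 9, 2 without F1 replicate 8, 10 or 11 or F0 replicate 11 or 12, 3 without F1 replicate 7 or 9 or F0 replicate 8, and 4 to 6 without each of the others.

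Genes of drug metabolism gave 6 DEGs of 44 tested (13.6%, against 1.86% over all genes), all lower in F1 livers (median log2 fold change of the list -0.04). Of these, cyp2k19, cyp2k21 and cyp2k16 encode P450 enzymes and lie side by side on chromosome 3 between 12580933 and 12629309. Cyp2k19 had 199 to 349.6 CPM in F1 livers (median 268), against 382 to 456 CPM in F0 livers (median 415) (log2 fold change -0.62 ± 0.12, edgeR adjusted p = 0.0165). Cyp2k21 had 5.84 to 14.2 CPM in F1 livers (median 9.08), against 11.7 to 24.2 CPM in F0 livers (median 20.1) (log2 fold change -0.95 ± 0.22, edgeR adjusted p = 0.0366). Cyp2k16 was at 0.416 to 1.74 CPM in F1 livers (median 1.33), against 2.05 to 5.57 CPM in F0 livers (median 2.94) (log2 fold change -1.46 ± 0.33, edgeR adjusted p = 0.0335) and shared 22.3% of its exon bases with cyp2k17. Reads of such near copies could have been lost or shared between them, so the 3 values are uncertain as separate genes. Cyp1a, the P450 induced through the aryl hydrocarbon receptor (GRCz10 chromosome 18, 5738730 to 5749620), differed by little but without overlap, at 608 to 707 CPM in F1 livers (median 687), against 787 to 914 CPM in F0 livers (median 847) (log2 fold change -0.33 ± 0.07, edgeR adjusted p = 0.0335). Comta, which methylates catechols, was at 121 ± 9.11 CPM in F1 livers, against 169 ± 28.5 CPM in F0 livers (log2 fold change -0.47 ± 0.11, edgeR adjusted p = 0.0359), and abcb4, an efflux transporter, was at 36 ± 6.44 CPM in F1 livers, against 62.9 ± 16.5 CPM in F0 livers (log2 fold change -0.80 ± 0.18, edgeR adjusted p = 0.0316). None of the 6 calls was stable, each being lost without 8 or 9 of the 12 libraries in turn. The list had 0 to 4 DEGs with 1 library left out (0 without F1 replicate 9, 10 or 11, 1 without F1 replicate 8 or F0 replicate 9, 2 without F0 replicate 10, 11 or 12, 3 without F0 replicate 8, 4 without F1 replicate 7 or 12 or F0 replicate 7).

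In oxidant defence and glutathione metabolism 3 of 48 genes were DEGs (6.25%, against 1.86% over all genes), 1 higher and 2 lower. The median log2 fold change of the 48 was 0.02. Hmox1a, heme oxygenase, which breaks down heme and is induced by oxidants (GRCz10 chromosome 3, 25880611 to 25886721), was 4.32-fold higher, at 36.7 to 295 CPM in F1 livers (median 189), against 28.8 to 53.4 CPM in F0 livers (median 47.8) (log2 fold change 2.11 ± 0.41, edgeR adjusted p = 0.0273). The F1 libraries were above every F0 library except F1 replicate 12, which at 36.7 CPM lay within the F0 range. Gpx8, a peroxidase of the endoplasmic reticulum (GRCz10 chromosome 8, 40143958 to 40149403), was 3.42-fold lower at 0.337 to 1.13 CPM in F1 livers (median 0.589), against 1.59 to 2.49 CPM in F0 livers (median 2.29) without overlap (log2 fold change -1.77 ± 0.28, edgeR adjusted p = 0.00741), from 2 to 6 reads per F1 library and 13 to 31 per F0 library. Nfe2l2a, which encodes Nrf2, the transcription factor of the oxidant response (GRCz10 chromosome 9, 1652136 to 1681220), fell to 129 ± 14.6 CPM in F1 livers, against 190.5 ± 35.2 CPM in F0 livers (log2 fold change -0.56 ± 0.13, edgeR adjusted p = 0.0339). Gpx8 was a DEG whichever library was left out, hmox1a lost the call without F1 replicate 8 or 10 or F0 replicate 7, 9, 10 or 11, and nfe2l2a without 9 of the 12 in turn. The list had 1 DEG without F1 replicate 8 or 10 or F0 replicate 9 or 11, 6 without F1 replicate 12, and 2 or 3 without each of the others.

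Innate immune genes gave 5 DEGs of 74 tested (6.76%, against 1.86% over all genes), 3 higher and 2 lower. The median log2 fold change of the 74 was -0.00. Of the 5 DEGs 4 belong to complement, the cascade of plasma proteins that marks and lyses microbes. Pglyrp2 is given above. Cfd, complement factor D, had 31.4 to 55.2 CPM in F1 livers (median 41.8), against 20.5 to 33.1 CPM in F0 livers (median 25.3) (log2 fold change 0.69 ± 0.15, edgeR adjusted p = 0.0273), and c7b, a component of the lytic complex, had 25.5 to 192 CPM in F1 livers (median 83.8), against 8.5 to 25.7 CPM in F0 livers (median 21) (log2 fold change 2.34 ± 0.52, edgeR adjusted p = 0.0422), so both rose, with overlap. C3a.6, a copy of complement C3, fell to 838 ± 174 CPM in F1 livers, against 1422 ± 329 CPM in F0 livers (log2 fold change -0.76 ± 0.16, edgeR adjusted p = 0.0282), and c4b to 845 ± 82.6 CPM in F1 livers, against 1265 ± 279 CPM in F0 livers (log2 fold change -0.58 ± 0.13, edgeR adjusted p = 0.0346). C3 is present in several near copies here, so reads of c3a.6 could have been lost or shared among them. All 4 complement calls were lost without 6 to 10 of the 12 libraries in turn, and the list had 1 DEG, against 5, without F1 replicate 8, 9 or 10 or F0 replicate 9 or 11, and 3 without F1 replicate 11 or F0 replicate 12. Of 20 leukocyte markers tested 19 had a log2 fold change below 0 (median -0.52, 11 with an unadjusted p under 0.05) and none was a DEG (0 by edgeR, 4 with DESeq2). Their summed level was 139 to 268 CPM in F1 livers and 159 to 407 CPM in F0 livers, no leukocyte marker was at 0 in any library, and their part in the immune result was not tested.

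Other lists held 1 or a few DEGs. Among 76 genes of the endoplasmic reticulum and secretory pathway, 2 rose (2.63%, near the 1.86% over all genes; median log2 fold change 0.09). Golt1a, a Golgi transport gene, had 15.8 to 22.5 CPM in F1 livers (median 18.9), against 9.42 to 14.8 CPM in F0 livers (median 11) (log2 fold change 0.77 ± 0.13, edgeR adjusted p = 0.00986), and napab, which helps take membrane fusion complexes apart, had 37.4 to 47.4 CPM in F1 livers (median 44.2), against 30.1 to 35.6 CPM in F0 livers (median 35) (log2 fold change 0.35 ± 0.09, edgeR adjusted p = 0.0448). Golt1a was a DEG whichever library was left out, and napab lost the call without each library but F1 replicate 8. Of 23 genes of the integrated stress response 4 were DEGs (17.4%, against 1.86% over all genes), 1 higher and 3 lower. The median log2 fold change of the 23 was -0.20. The 4 were trib3, cdkn1a and gadd45ba, given above, and eif2s2. Eif2s2, the beta subunit of the initiation factor eIF2, rose by little, at 136 to 152 CPM in F1 livers (median 137), against 102 to 126 CPM in F0 livers (median 109.9) (log2 fold change 0.33 ± 0.08, edgeR adjusted p = 0.0455), and lost the call without each library but F0 replicate 8. That list had 0 DEGs without F1 replicate 10 or 11 or F0 replicate 9, 1 without F1 replicate 7, 9 or 12 or F0 replicate 7, 2 without F1 replicate 8, and 3 or 4 without each of the others. Of 66 ribosome biogenesis genes 1 was a DEG (1.52%, against 1.86% over all genes), ttc27, at 6.72 to 15.1 CPM in F1 livers (median 12.2), against 4.62 to 7.84 CPM in F0 livers (median 5.24) (log2 fold change 1.05 ± 0.20, edgeR adjusted p = 0.0158), which was called whichever library was left out. The median of those 66 genes was 0.30, 5 were below 0 and 19 had an unadjusted p under 0.05, and 7 were DEGs without F1 replicate 12 and 2 without F0 replicate 10 or 11. Igfbp7, given above, was the 1 DEG among 17 genes of the growth hormone axis (5.88%, against 1.86% over all genes). The median log2 fold change of the 17 was -0.14, and 2 were DEGs without F0 replicate 7, 8 or 11.

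Of 17 markers of endothelial and stellate cells 2 were DEGs (11.8%, against 1.86% over all genes), both lower in F1 livers. The summed level of the list was 243 to 330 CPM in F1 livers and 229 to 333 CPM in F0 livers. Col5a1, a fibrillar collagen chain, fell to 14 ± 1.47 CPM in F1 livers, against 21.9 ± 4.23 CPM in F0 livers (log2 fold change -0.65 ± 0.13, edgeR adjusted p = 0.0246), and gpr182, a receptor of sinusoidal endothelium, to 2.5 ± 0.163 CPM in F1 livers, against 4.14 ± 0.706 CPM in F0 livers (log2 fold change -0.72 ± 0.17, edgeR adjusted p = 0.0371). Col5a1 lost the call without F1 replicate 8, 10 or 11 or F0 replicate 9 or 11, and gpr182 without each library but F0 replicate 10.

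In 13 of the 30 lists no gene was a DEG. All 78 ribosomal protein genes lay close to 0, with a median log2 fold change of -0.00 and values from -0.13 to 0.30, and none was called by edgeR or DESeq2 or had an unadjusted p under 0.05 (0 each). Rpl10 had -0.01 ± 0.09 (edgeR adjusted p = 0.954) and rpl10a -0.12 ± 0.11 (edgeR adjusted p = 0.58). Of the heat shock factors, hsf1 had -0.20 ± 0.24 (edgeR adjusted p = 0.715), and hsf2 had -0.59 ± 0.15 and passed under the Ensembl annotation alone (edgeR adjusted p = 0.0455, and 0.0563 under RefSeq). The estrogen receptors esr1 (-0.96 ± 0.36, edgeR adjusted p = 0.173) and esr2a (0.07 ± 0.14, 0.824), and the replication genes mcm5 (-0.70 ± 0.45, edgeR adjusted p = 0.445) and pcna (-0.58 ± 0.24, 0.227) did not pass. For hepatocytes, tfa, transferrin, was at 45685 ± 5595 CPM in F1 livers, against 50828 ± 8450.3 CPM in F0 livers (edgeR adjusted p = 0.518) and fabp10a, the liver fatty acid binding protein, at 19148 ± 2095 CPM in F1 livers, against 18526 ± 1851 CPM in F0 livers (edgeR adjusted p = 0.823). In the marker lists of testis (sycp1 -0.94, spag6 0.02), erythrocytes (hbaa1 0.36, hbaa2 0.38), leukocytes (mpeg1.1 -0.55, mpeg1.2 -0.51), cholangiocytes (anxa4 0.05, krt18a.1 0.00) and muscle (mylpfa -1.84, ckma -1.36) the log2 fold changes of the leading genes did not pass either, with edgeR adjusted p-values from 0.188 to 0.993. At an unadjusted p under 0.05 there were 2 heat shock genes, 1 estrogen response gene, 1 proliferation gene, 1 hepatocyte marker, 1 testis marker and 6 erythrocyte markers, and DESeq2 called 2 heat shock genes and 1 erythrocyte marker. With 1 library left out, edgeR called 1 heat shock gene (F1 replicate 7 or F0 replicate 8, 10 or 11), 1 enterocyte marker (F1 replicate 7 or F0 replicate 8 or 12), 2 leukocyte markers (F0 replicate 8) or 1 (F0 replicate 12).

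The largest increases among named DEGs were those of epha3, c7b, hmox1a and prss35, and the largest decreases those of mybpc1, tns2b, pcolce2b and alox5b.3. Epha3, an ephrin receptor (GRCz10 chromosome 9, 16437405 to 16619849), was 6.51-fold higher at 2.57 to 17.6 CPM in F1 livers (median 12.6), against 0.164 to 2.8 CPM in F0 livers (median 2.01) (log2 fold change 2.70 ± 0.47, edgeR adjusted p = 0.0158), with F1 replicate 7 inside the F0 range. Prss35, of the serine protease family (GRCz10 chromosome 23, 2507402 to 2509033), was 3.7-fold higher at 3.24 to 11.7 CPM in F1 livers (median 5.2), against 0.819 to 2.49 CPM in F0 livers (median 1.69) without overlap (log2 fold change 1.89 ± 0.38, edgeR adjusted p = 0.0215). Each had a level of a few CPM at most in F0 livers. Mybpc1, a myosin binding protein of slow muscle fibres (GRCz10 chromosome 4, 17737865 to 17804176), had 0 to 0.843 CPM in F1 livers (median 0.198), against 0 to 13.9 CPM in F0 livers (median 7.06) (log2 fold change -4.16 ± 0.95, edgeR adjusted p = 0.0457). Its F0 libraries were uneven, with 0 CPM in F0 replicate 12 and 1.83 CPM in F0 replicate 8 against 13.9 CPM in F0 replicate 9. Muscle markers summed to 5.6 to 49.9 CPM in F1 livers (median 12.2) and 6.45 to 85 CPM in F0 livers (median 58.9). Of these markers 10 of 14 were at 0 in at least 1 F1 library and 9 of 14 in at least 1 F0 library. All 5 muscle markers tested had a log2 fold change below 0 (median -1.57). None was a DEG (0 by edgeR, 0 with DESeq2, 0 with an unadjusted p under 0.05), and their part in the mybpc1 result was not tested.

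Pcolce2b, an enhancer of collagen processing (GRCz10 chromosome 24, 5842260 to 5860549), had 0.188 to 0.584 CPM in F1 livers (median 0.366), against 0.367 to 7.39 CPM in F0 livers (median 3.19) (log2 fold change -3.0 ± 0.63, edgeR adjusted p = 0.0269), from 1 to 4 reads per F1 library and 5 to 65 per F0 library. It shared 44.9% of its exon bases with trpc1 on the opposite strand. The counting was not stated to use strand, so reads over the shared bases cannot be assigned to 1 gene. Alox5b.3, of the arachidonate lipoxygenase family (GRCz10 chromosome 15, 631450 to 643550), had 0 to 0.751 CPM in F1 livers (median 0.245), against 1.31 to 3.41 CPM in F0 livers (median 1.54) without overlap (log2 fold change -2.83 ± 0.50, edgeR adjusted p = 0.0131), from 0 to 4 reads per F1 library and 8 to 32 per F0 library. The fish of both generations ate the control diet. Tns2b and epha3 were DEGs whichever library was left out. Alox5b.3 was a DEG in each of these fits that tested it, but in some its counts averaged under 10 and it was not tested. Prss35 lost the call without F1 replicate 8 or F0 replicate 9, pcolce2b without F1 replicate 8, 9, 10 or 11, and mybpc1 and c7b without 10 of the 12 in turn.

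**Figure D4:**
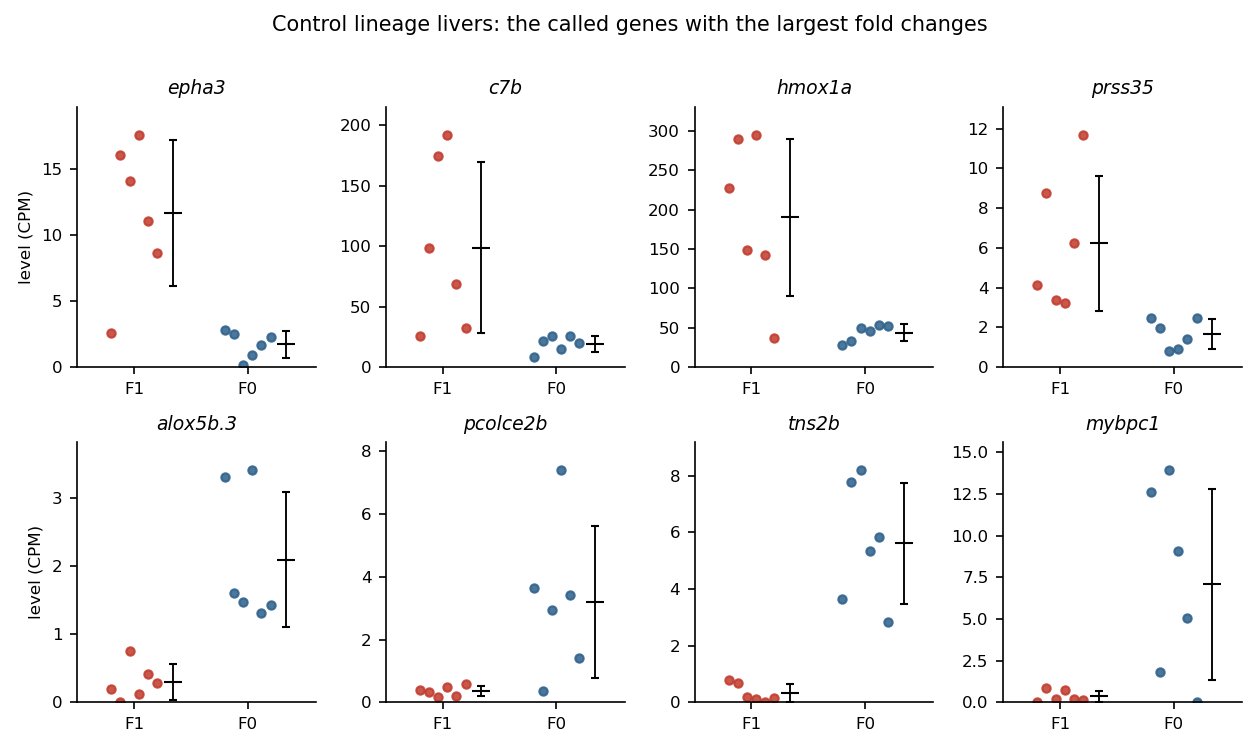
Level of the 8 named DEGs with the largest log2 fold changes in each library (CPM, linear axes that include 0), F1 left and F0 right in replicate order, with mean ± SD beside the points. The upper row holds the genes that rose, from epha3 to prss35, and the lower row those that fell, from alox5b.3 to mybpc1.

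The same generations were also sampled in the high ARA lineage, whose F0 fish were fed a high ARA diet and whose F1 fish were fed the control diet. Livers were taken there at 140 to 142 DPF in F1 and 154 to 156 DPF in F0 fish. So generation, age, days of sampling and the fish's own diet differ there at once. Apart from diet, these differences are shared with the control lineage, so results common to both lineages cannot tell them apart. The 2 lineages share no library. In that lineage 1825 of 11387 genes were DEGs between F1 and F0 (16%; 939 higher and 886 lower in F1 livers). Of the 204 DEGs of the control lineage 201 were tested there, 186 had the same sign (92.5%, against 68.8% of 10852 genes tested in both lineages) and 105 were DEGs with the same sign, which was 52.2% of the 201 and 5.75% of the 1825. The other 15 had the opposite sign, and none of these was a DEG there by edgeR or DESeq2 or had an unadjusted p under 0.05 (0 each). Over the DEGs tested in both lineages, the lower ones had a median log2 fold change of -0.99 in the control lineage and -0.67 in the high ARA lineage. The higher ones had a median of 0.69 in the control lineage and 0.51 in the high ARA lineage. These genes were chosen by their control lineage values, which can enlarge the medians of that lineage. The medians therefore cannot tell whether the lineages differ in size of effect.

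Clock genes fell in the high ARA lineage too. There 18 of the 39 were DEGs, while 16% of all genes were. All 18 were lower in F1 livers, and the median log2 fold change of the 39 was -0.52 (0.01 over all genes). Of the 13 clock DEGs of the control lineage 10 were among them, against 52.2% of all DEGs of the control lineage tested there. All 13 had a negative log2 fold change there, also cry1bb, which rose in the control lineage. Not called there were cry1bb (-0.14, edgeR adjusted p = 0.642), rorab (-0.04, 0.931) and ciartb (-0.77, 0.0708). Tefa was at 27.9 ± 5.44 CPM in F1 livers and 72.6 ± 23.4 CPM in F0 livers of that lineage (log2 fold change -1.42, edgeR adjusted p = 0.000982), and cry2 at 5.57 ± 0.806 CPM in F1 livers and 16.2 ± 5.46 CPM in F0 livers (log2 fold change -1.58, edgeR adjusted p = 0.000621). Pglyrp2, at 100.4 ± 13.9 CPM in F1 livers and 50.7 ± 4.48 CPM in F0 livers of the control lineage, was at 100.5 ± 18.9 CPM in F1 livers and 51 ± 11.4 CPM in F0 livers of the high ARA lineage (log2 fold change 0.95, edgeR adjusted p = 0.00231). In contrast, srebf1 had a log2 fold change of -0.22 (edgeR adjusted p = 0.371) and lepr one of -0.07 (edgeR adjusted p = 0.802) in the high ARA lineage, and neither passed there. The difference between lineages did not pass for srebf1 (edgeR adjusted p = 0.118, and 0.106 under RefSeq). For lepr it passed under RefSeq alone (edgeR adjusted p = 0.0843, and 0.0382 under RefSeq), so it was not called. Of the 12 named genes with the smallest p-values, tns2b, chchd7, nedd4a and exd3 were not called in the high ARA lineage. The others were, with the same sign. There tns2b was at 3.07 ± 2.12 CPM in F1 livers and 5.69 ± 2.89 CPM in F0 livers (log2 fold change -0.94, edgeR adjusted p = 0.161). Of the largest folds, epha3, prss35 and pcolce2b were not called there and alox5b.3 was not tested, whereas mybpc1, c7b and hmox1a were called. Ribosome biogenesis genes had a median log2 fold change of 0.30 in the control lineage and 0.81 in the high ARA lineage. Of these 66 genes 1 was a DEG in the control lineage, where 1.86% of all genes were, and 49 were DEGs in the high ARA lineage, where 16% of all genes were, and the difference between the lineages was not tested for the list.

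Tested directly, the generation difference itself differed between the lineages in 12 of 11217 genes (0.107%), 5 with a higher and 7 with a lower log2 fold change in the control lineage, and 1544 Ensembl genes had an unadjusted p under 0.05. Of the 204 DEGs 2 were among the 12. Gpx8 had a log2 fold change of -1.77 ± 0.28 in the control lineage and 0.18 in the high ARA lineage, where it was at 1.43 ± 0.438 CPM in F1 livers and 1.28 ± 0.476 CPM in F0 livers (difference -1.94, edgeR adjusted p = 0.0475). Cfap70, a gene of cilia and flagella that is named because it was the other of the 2, fell in the control lineage (log2 fold change -1.50, edgeR adjusted p = 0.00611) and had a difference of -1.73. The count of 12 was 2 without F1 replicate 8 or 12 of the control lineage, 3 without F1 replicate 10 or F0 replicate 10, 4 without F0 replicate 9, 5 without F1 replicate 9 or 11, 6 without F0 replicate 11 and 10 to 16 without each of the other control libraries. The high ARA libraries were not left out in this test.

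**Figure D5:**
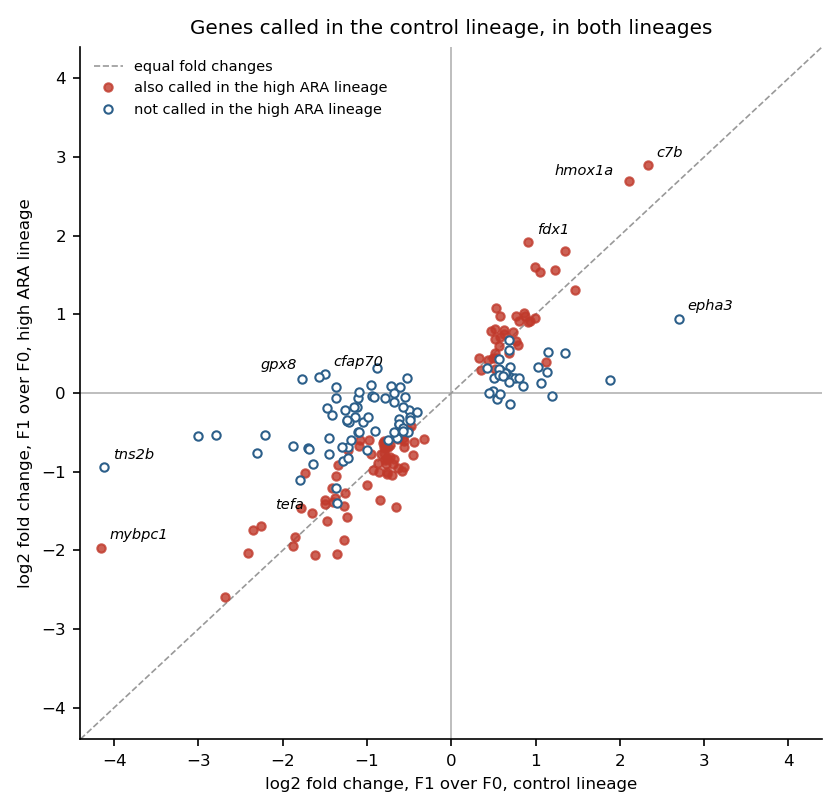
Log2 fold change of F1 over F0 livers in the control lineage (x axis) and in the high ARA lineage (y axis) for the 201 DEGs of the control lineage tested in both, filled red where the gene was also a DEG in the high ARA lineage (105) and open blue where it was not (96). Most points lie in the 2 quadrants of equal sign, and the dashed line marks equal fold changes.

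In the genome 200 of the DEGs lay on chromosomes, and 27 of them fell into 13 groups of neighbours less than 100 kb apart. Of these groups 11 moved in 1 direction, and in 1 group both entries carried the symbol si:dkey-285b23.4. The share of neighbours over all genes tested was not counted, and 67.2% of all DEGs were lower. These counts are therefore a description, and no excess of neighbours or of shared directions was tested. Besides the cyp2k genes (all lower) and the apoa4b pair (both higher), pparda and camk1ga (chromosome 22, 980940 to 1052509) rose together, as did bhmt and zer1 (chromosome 21, 94310 to 170318) and igfbp7 and tstd2 (chromosome 14, 51653568 to 51867252). Cdkn1a and nuak2 (chromosome 22, 470567 to 570089) fell together. Zer1, tstd2 and nuak2 are named here as neighbours, after their values were seen. By chromosome the share of tested genes that were DEGs was highest on chromosome 3, at 2.94% (18 of 612), and lowest on chromosome 24, at 0.331% (1 of 302).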

How the data were processed

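RNA was sequenced from pools of male livers, 1 pool and library per tank, and the present comparison used the 6 F1 and 6 F0 control libraries. The deposited values were raw counts of reads per gene in 2 tables. According to the study's methods and the file headers, the authors checked reads with FastQC 0.11.5, aligned them with HISAT2 at default settings (version not given in the sources used here) to the genome build GRCz10 and counted exon reads per gene with featureCounts 1.5.0-p3, once with the Ensembl and once with the RefSeq annotation. The counting options recorded in the headers name no strand setting and no multiply mapped reads, so overlapping antisense genes and near-identical copies can share or lose reads. Each table held 36 count columns, of which 12 belonged to no sample used here and were not read.

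Genes whose counts averaged 10 or more over the 12 libraries were tested with edgeR 4.0.16 (TMM factors, robust quasi-likelihood F test, limma 3.58.1, R 4.3.3) with generation as the only term, on 11729 Ensembl and 11993 RefSeq genes, and p-values were adjusted by Benjamini-Hochberg over all genes of a table. The tables were joined by identifier, symbol, synonym or overlap of exons. Calls required an adjusted p under 0.05 and 1 direction in the 2 tables. Log2 fold changes are F1 over F0 under the Ensembl annotation, with the SE taken from the F statistic, and CPM levels used TMM factors of all 24 libraries. The size depended on the annotation for some genes. Under RefSeq it was larger for lepr (-1.55), nedd4a (-1.77) and acy1 (-0.95), and smaller for igfbp7 (0.97) and chdh (-1.05). The high ARA lineage and the interaction of lineage and generation were fitted by the same rule. The scripts were tested on simulated data.

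Named genes were the 12 called genes with the smallest p, the 4 with the largest and the 4 with the smallest log2 fold change (assigned symbols only), the called members of each list (the 6 with the smallest p where more were called), and the first 2 tested genes of lists with none. A result for 1 of these genes is not reported here. The members and lists were chosen with earlier results of these data known. P-values set the difference between the generations against the spread between tanks within a generation. Each generation was 1 set of fish, so the p-values do not measure how generations vary. No 2 libraries were duplicates. Alternatives were RLE factors, library totals, no filter, a mean count of at least 50, all 24 libraries in 1 fit, the replicate number as a block, 1 surrogate variable (sva 3.50.0), DESeq2 1.42.0 with and without a normal prior, each annotation alone and each library left out, and, chosen after seeing the data, a join without exon overlap. Sequences were not analysed here.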

Additional observations from a re-analysis of the deposited data

Results flagged for a closer look

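A single library stood apart from the other 5 of its group, by Dixon's criterion at the 95% level, in 9 of 162 groups of values looked at, and chance alone gives about 1 in 20. The groups were the named DEGs, the summed markers and the library totals in each generation. In F1 livers, txnipa was at 177 CPM in replicate 10, abcb4 at 23.9 CPM in replicate 11, cry1bb at 32.9 CPM in replicate 12 and the summed leukocyte markers at 268 CPM in replicate 8. In F0 livers, gpx8 was at 1.59 CPM, cbsb at 223 CPM and napab at 30.1 CPM in replicate 10, golt1a was at 14.8 CPM in replicate 7, and the summed islet markers were at 510.1 CPM in replicate 9. Of the 9 values 3 came from F0 replicate 10.

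The generation difference differed between the lineages in 12 genes, tested as an interaction with edgeR's quasi-likelihood test (adjusted p under 0.05 in both annotations). Given as the log2 fold change of the control lineage minus that of the high ARA lineage, it was -5.83 for zgc:162154, -3.17 for ccdc90b, -2.76 for esr1, -1.94 for gpx8, -1.73 for cfap70, -1.24 for ddc and -1.11 for tmc5, and 3.66 for si:ch211-67o16.6p, 2.25 for vldlr, 2.08 for elovl4b, 1.57 for crlf3 and 1.33 for sh3bgrl. The gene zgc:162154 had 0 CPM in 5 of the 6 F1 control libraries, so its fitted value depends on the prior count and is no bound. Ccdc90b was also low, at 0 to 0.498 CPM in F1 control livers. Of the 12 genes gpx8 and cfap70 were called in the control lineage itself, where zgc:162154 and ccdc90b averaged under 10 counts and were not tested. The calls depended on single libraries, as the counts of 2 to 16 with 1 control library left out show.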

How the results depend on the processing

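The count of 204 genes stayed within 1.5 times of that value with RLE factors, library totals, no filter, a mean count of at least 50, 1 surrogate variable, each annotation alone and the join without exon overlap. It was 345 with all 24 libraries in 1 fit, 475 with DESeq2 and 471 with DESeq2 and a normal prior, and it ranged from 83 to 222 with 1 library left out. The labels do not say whether equal replicate numbers pair tanks of the 2 generations. The correlation of same-numbered libraries, as deviations from their group means, ranged from -0.376 to 0.28. Only number 12 correlated best with its own number. Such correlations show no clear pairing in the levels, but they cannot tell how the tanks were related. With the number as a replicate block the count was 139, of which 39 were higher and 100 lower. Of the 204 genes 184 were called with all 24 libraries and all 204 with DESeq2. The interaction count of 12 was 95 with DESeq2 and 1 at a mean count of at least 50, and it ranged from 2 to 16 with 1 control library left out (no high ARA library was left out). Of the genes called in the control lineage 105 were also called in the high ARA lineage, and 68 with 1 surrogate variable. The causes of these changes were not tested. Of the 70 called genes with names, 25 were called in every alternative that tested them, 45 were lost in at least 1 and none changed sign (0). Some of the 25, such as tns2b, gpx8 and alox5b.3, were not tested in every alternative. With library totals the median of all genes moved to -0.06 and 76.4% of calls were lower, against 67.2% with TMM. The median library total was 5668222 reads in F1 livers and 8721951 in F0 livers, and counts of 0 to 6 reads limit the folds of tns2b, alox5b.3, pcolce2b, gpx8 and mybpc1.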

Other observations

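The lists held 59 of the 204 differentially expressed genes and 145 stood in none. The genes given here were picked from those 145 after their values were seen, for their known roles, and are a description. In purine and pyrimidine metabolism, upp1 (uridine phosphorylase) was lower in F1 livers, with means of 3.75 CPM in F1 livers and 13.3 CPM in F0 livers (log2 fold change -1.79, edgeR adjusted p = 0.0158), as was gda (guanine deaminase), with 102 CPM in F1 livers and 182 CPM in F0 livers (log2 fold change -0.84, edgeR adjusted p = 0.0168), while impdh1b, which commits inosine monophosphate to guanine nucleotides, was higher, with 50.9 CPM in F1 livers and 27.7 CPM in F0 livers (log2 fold change 0.88, edgeR adjusted p = 0.0422). All 3 were also called in the high ARA lineage with the same sign. Aco1, the cytosolic aconitase that doubles as an iron regulatory protein, was lower in F1 livers, with 3.80 CPM in F1 livers and 11.7 CPM in F0 livers (log2 fold change -1.61, edgeR adjusted p = 0.0136), and was called with the same sign in the high ARA lineage.

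In signalling, tac4, a tachykinin gene, had 7.21 CPM in F1 livers and 49.9 CPM in F0 livers (log2 fold change -2.79, edgeR adjusted p = 0.0384), and pde9a, a phosphodiesterase of cyclic GMP, had 0.878 CPM in F1 livers and 4.57 CPM in F0 livers (log2 fold change -2.41, edgeR adjusted p = 0.0118), both lower in F1 livers. Cited4a, a transcriptional coactivator, was lower too, with 33.6 CPM in F1 livers and 79.4 CPM in F0 livers (log2 fold change -1.24, edgeR adjusted p = 0.0136). Among the genes that were higher, gk5, of the glycerol kinase family, had 123 CPM in F1 livers and 60.6 CPM in F0 livers (log2 fold change 1.03, edgeR adjusted p = 0.0155), and ctsla, a lysosomal cathepsin, had 343 CPM in F1 livers and 223 CPM in F0 livers (log2 fold change 0.63, edgeR adjusted p = 0.034).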
